A study of Mus musculus with 4 samples.

Results

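The genes described here are 10 receptor tyrosine kinases, Pdgfrb, Fgfr1, Fgfr2, Egfr, Igf1r, Insr, Met, Alk, Ret, and Kit, which were chosen by gene symbol. All 10 were found among the 33565 genes of the matrices, each with UMIs in all 3 cell lines. The lines were N2a, a mouse neuroblastoma line grown in DMEM with 10% fetal bovine serum; NIH/3T3, a mouse embryonic fibroblast line grown in the same medium; and mESCs of the E14TG2a line, grown on gelatin in DMEM with 15% fetal bovine serum, leukemia inhibitory factor, 3 μM CHIR99021, which inhibits the kinase GSK3, and 1 μM PD0325901, which inhibits MEK, a kinase downstream of these receptors. No line was labelled with a genetic change or a further treatment. As mESCs had their own medium, line and medium cannot be told apart where they are compared with the others. Each line filled its own columns of the first barcode plate (BC1) of a split-pool CapSeq experiment, and all were sequenced as 1 library, with 1 sample per line. No test between lines was therefore possible, and no p-value is given.

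Cells were barcodes with 1000 UMIs or more, of which mitochondrial genes made up 20% or less. This left 2323 N2a cells with a median of 6185 UMIs, 2037 NIH/3T3 cells with a median of 4863, and 2137 mESCs with a median of 4803, or 6497 cells in all. The number of cell barcodes shared by 2 lines was 0. Levels are given as CPM, the UMIs of a gene summed over the cells of a line and scaled to a total of 1000000 UMIs (the totals were 17955221 in N2a, against 12322098 in mESCs and 11697865 in NIH/3T3). The 95% intervals are exact Poisson for levels, exact conditional binomial for ratios of CPM, and Clopper-Pearson for shares of cells, and reflect no more than counting error. Where no UMI was found, up to 3 UMIs were allowed for, which is 0.167 CPM in N2a, against 0.243 in mESCs and 0.256 in NIH/3T3. The levels are not corrected for transcript length, so a gene is compared between lines and not with another gene. Whether reads from introns were counted is not given in the sources used here, and their part in the levels of long genes such as Alk was not tested.

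Receptor tyrosine kinases are single-pass membrane proteins that bind a growth factor outside the cell and, once paired, phosphorylate tyrosines on themselves and on adaptor proteins inside it. The adaptors connect them to the Ras-ERK and PI3K pathways. Alk and Ret are known for roles in sympathetic neuroblasts and neuroblastoma, Kit for germ cells, blood, and pluripotent cells, Met and the PDGF receptors for mesenchymal and epithelial growth, and Igf1r and Insr for metabolic and growth signals in most tissues.

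The catalytic loop, which carries out phosphate transfer, is a conserved part of these kinases, and a stretch of 60 coding bases around it is shown for Alk, Ret, Met, and Kit, each set apart by line below, and for Igf1r, whose stretch was closest to that of Met. The 24 bases in capitals encode the loop motif. Sequences are from GENCODE M39 transcripts on GRCm39, 5′ to 3′ on the coding strand, and in Alk, Ret, Met, and Kit the stretch is spliced from neighboring exons, so that the genome span includes an intron.
Alk, chr17:72192406-72197982, - strand: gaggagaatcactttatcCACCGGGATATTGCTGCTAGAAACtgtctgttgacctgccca
Ret, chr6:118144932-118145094, - strand: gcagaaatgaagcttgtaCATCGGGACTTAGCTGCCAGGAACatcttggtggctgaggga
Igf1r, chr7:67861826-67861885, + strand: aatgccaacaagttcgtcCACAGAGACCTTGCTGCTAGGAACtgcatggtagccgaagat
Met, chr6:17562220-17563565, + strand: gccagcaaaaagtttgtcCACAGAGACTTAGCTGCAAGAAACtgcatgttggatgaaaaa
Kit, chr5:75809163-75810254, + strand: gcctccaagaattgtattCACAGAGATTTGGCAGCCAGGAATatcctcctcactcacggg

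Over 8 of the receptors, these stretches differed from each other at 17 to 32 of 60 bases in 28 pairs, with the fewest differences between Igf1r and Met. No pair had the same 24 loop bases (0 pairs), the fewest differences being 2, between Fgfr1 and Igf1r. The stretch lies within a single exon in Igf1r (exon 18 of 21) and Egfr (exon 21 of 28).

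The receptors are spread over chromosomes 5, 6, 7, 8, 11, 17, and 18. Alk has the longest canonical transcript span, chr17:72174200-72910822, which is 736623 bases with 29 exons. Kit lies at chr5:75735576-75817404, Met at chr6:17463749-17573979, Ret at chr6:118130399-118174769, Igf1r at chr7:67601518-67883416, Insr at chr8:3200922-3329647, Fgfr1 at chr8:26008745-26066824, and Egfr at chr11:16702198-16868158. For Fgfr2, the canonical transcript spans chr7:129763471-129868272, but the annotated gene in GENCODE M39 reaches 132725079 and overlaps 47 other genes on its strand. Within the canonical spans, genes on the same strand overlapped Igf1r (1 gene) and Alk (3 genes), and 0 of these were among the genes of the matrices. Genes on the opposite strand overlapped Kit, Fgfr1, Egfr, Igf1r, Insr, and Alk, and whether counting used strand is not given in the sources used here.

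The identity of the lines was checked with 6 markers each. All 6 NIH/3T3 markers (Col1a1, Col1a2, Cav1, Thy1, Prrx1, and Twist2) and all 6 mESC markers (Pou5f1, Zfp42, Dppa5a, Nanog, Esrrb, and Tdgf1) were highest in their own line. Of the 6 N2a markers, Hand2, Gata2, Isl1, Elavl4, and Tubb3 were highest in N2a, whereas Gata3 reached 8.44 CPM in mESCs and 3.84 in N2a. Summed over a list, the NIH/3T3 and mESC markers were found in the other lines at 0.149% to 0.359% of their own level, and the N2a markers at 1.55% in NIH/3T3 and 6.01% in mESCs. Of 5 primitive endoderm markers, Foxa2 was at 0 in all lines, and the sum in mESCs was 4.06 CPM. The shares of the NIH/3T3 and mESC markers outside their line give the scale to which low receptor counts are compared.

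The 10 receptors divided between the lines. N2a had the highest level of Alk, Ret, Insr, and Igf1r, NIH/3T3 that of Met, Egfr, and Pdgfrb, and mESCs that of Kit, Fgfr2, and Fgfr1. A gene was called for a line when it had 5 CPM or more there and a 4-fold or larger excess over each of the other lines. By this rule, 5 of 10 receptors were called, against 21.6% of the 13000 genes tested, which were those with at least 5 CPM in a line. The receptors and the gene lists below were chosen with earlier results of these data known, so their called shares are descriptions and no measure of enrichment. N2a had 3 called receptors, Alk, Ret, and Insr, where 6.79% of all genes were called for N2a. NIH/3T3 had 1, Met, where 5.95% of genes were called, and mESCs had 1, Kit, where 8.88% of genes were called. The median ratio of the highest to the next line was 3.71 for the receptors, 2.94 for 29 other receptor tyrosine kinases that were tested, and 1.54 for all genes tested.

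**Figure D1:**
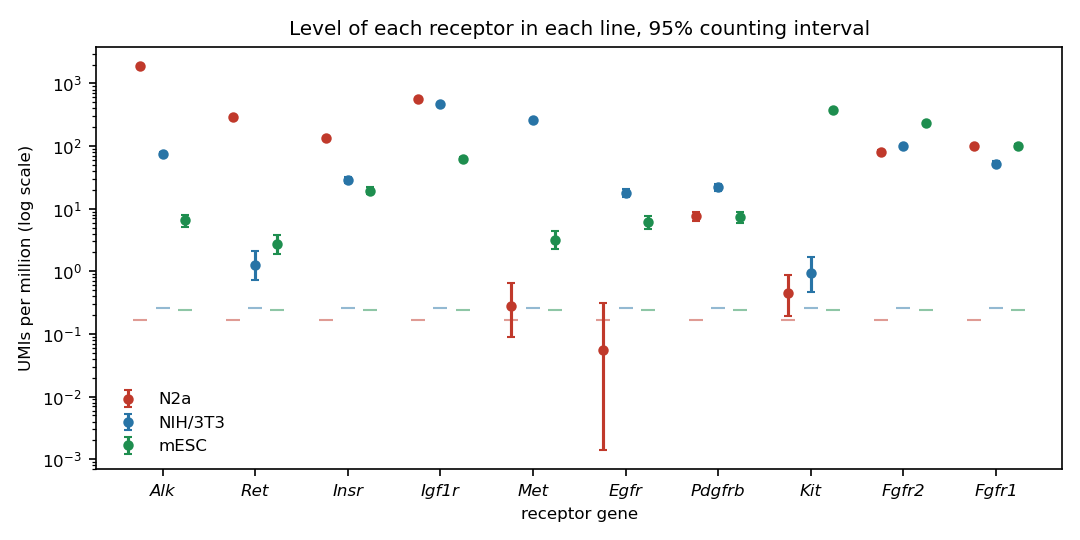
Level of the 10 receptors in N2a, NIH/3T3, and mESCs in CPM on a log axis; points are 1 sample per line, bars are 95% Poisson intervals, and short dashes mark 3 UMIs. Alk ranged from 1866 CPM in N2a to 6.49 in mESCs, and Egfr in N2a rests on 1 UMI.

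Alk, the receptor whose activating mutations drive a share of neuroblastomas, was at 1866 CPM in N2a (1846 to 1886), against 6.49 in mESCs (5.15 to 8.08) and 75.2 in NIH/3T3 (70.3 to 80.4). The N2a level rests on 33498 UMIs, and it was 24.8-fold that of NIH/3T3 (23.2 to 26.5) and 287-fold that of mESCs (231 to 362). N2a cells came from 32 BC1 wells, which are partitions of 1 sample and not replicates, and the level ranged over them from 1521 to 2272 CPM with a median of 1853. In NIH/3T3, it ranged over 32 wells from 16.9 to 140 CPM. No well of NIH/3T3 or mESCs reached the N2a range. At least 1 Alk UMI was found in 95.5% of N2a cells, 17.7% of NIH/3T3 cells, and 3.28% of mESCs. The highest count in a cell was 220 in N2a and 14 in NIH/3T3.

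Ret, the signaling receptor for ligands of the GDNF family, was at 286 CPM in N2a (278 to 294), against 2.76 in mESCs (1.91 to 3.86) and 1.28 in NIH/3T3 (0.718 to 2.11). The N2a level was 104-fold that of mESCs (74.1 to 150) and 223-fold that of NIH/3T3 (135 to 399). Every N2a well was above every well of the other lines: the N2a wells lay between 234 and 343 CPM, whereas the highest NIH/3T3 well was at 7.33 and the highest mESC well at 9.00. Ret was detected in 73.4% of N2a cells, 0.736% of NIH/3T3 cells, and 1.54% of mESCs.

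Insr, the insulin receptor, was at 135 CPM in N2a (130 to 141), against 19.5 in mESCs (17.1 to 22.1) and 28.9 in NIH/3T3 (25.9 to 32.1). The N2a level was 4.69-fold that of NIH/3T3 (4.18 to 5.27) and 6.95-fold that of mESCs (6.09 to 7.97). With the lower bound of the ratio to NIH/3T3 at 4.18, Insr is the called receptor nearest to the 4-fold limit. Its N2a wells, from 77.7 to 178 CPM, did not overlap those of NIH/3T3, from 10.8 to 49.3, or those of mESCs, which reached 56.1.

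Igf1r, the receptor for insulin-like growth factors, was at 565 CPM in N2a (554 to 577), against 62.7 in mESCs (58.4 to 67.3) and 476 in NIH/3T3 (464 to 489). N2a and NIH/3T3 differed by a ratio of 1.19 (1.15 to 1.23), and their wells overlapped. Both lines stood apart from mESCs, where Igf1r was 9.01-fold lower than in N2a (8.38 to 9.71) and 7.59-fold lower than in NIH/3T3 (7.04 to 8.19). It was detected in 83.5% of N2a cells, 80.9% of NIH/3T3 cells, and 24.7% of mESCs. Insr and Igf1r, which are related receptors, thus had unlike profiles: NIH/3T3 was close to N2a for Igf1r, whereas for Insr it was 1.48-fold above mESCs (1.25 to 1.76) and well below N2a.

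Met, the receptor for hepatocyte growth factor, was at 260 CPM in NIH/3T3 (250.4 to 269), 0.278 in N2a (0.0904 to 0.650), and 3.17 in mESCs (2.25 to 4.33). The NIH/3T3 level was 82.0-fold that of mESCs (59.8 to 116) and 932-fold that of N2a (399 to 2872), the last resting on 5 N2a UMIs. Met was found in 64.0% of NIH/3T3 cells, 0.215% of N2a cells, and 1.68% of mESCs. The NIH/3T3 wells ranged from 186 to 401 CPM, and 28 of 32 N2a wells had no Met UMI.

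Egfr, the epidermal growth factor receptor, and Pdgfrb, the receptor for PDGF-BB, were also highest in NIH/3T3, but at low levels. Egfr was at 17.9 CPM in NIH/3T3 (15.5 to 20.5), 6.09 in mESCs (4.79 to 7.63), and 0.0557 in N2a (0.00141 to 0.310). In N2a this was 1 UMI over 2323 cells, so a ratio of NIH/3T3 to N2a of 321 has an interval from 57.0 to 12731. Pdgfrb was at 21.9 CPM in NIH/3T3 (19.3 to 24.7), 7.52 in N2a (6.30 to 8.90), and 7.30 in mESCs (5.87 to 8.98). For Pdgfrb, N2a and mESCs did not differ beyond counting error, with a ratio of 1.03 (0.783 to 1.36), at levels that were not told apart from background, and NIH/3T3 was 2.91-fold above N2a (2.35 to 3.61). The wells of NIH/3T3 overlapped those of mESCs for Egfr and those of both other lines for Pdgfrb. The share of NIH/3T3 cells with a UMI was 8.64% for Egfr and 9.52% for Pdgfrb.

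Kit, the receptor for stem cell factor, was at 379 CPM in mESCs (369 to 391), 0.940 in NIH/3T3 (0.469 to 1.68), and 0.446 in N2a (0.192 to 0.878). The mESC level was 404-fold that of NIH/3T3 (225 to 809) and 852-fold that of N2a (432 to 1974). It was found in 73.8% of mESCs, against 0.540% of NIH/3T3 cells and 0.344% of N2a cells. Over the 32 mESC wells, the level ranged from 267 to 494 CPM with a median of 383, and the highest well of the other lines was at 13.5 CPM.

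Fgfr1 and Fgfr2, 2 receptors for fibroblast growth factors, were present in all 3 lines. Fgfr2 was at 234 CPM in mESCs (226 to 243), 99.9 in NIH/3T3 (94.3 to 106), and 81.5 in N2a (77.4 to 85.8). The mESC level was 2.34-fold that of NIH/3T3 (2.19 to 2.51), and the mESC wells, from 164 to 284 CPM, lay above those of both other lines. Fgfr1 was at 102 CPM in mESCs (96.1 to 107), 99.1 in N2a (94.5 to 104), and 52.6 in NIH/3T3 (48.5 to 56.9). For Fgfr1, mESCs and N2a did not differ beyond counting error, with a ratio of 1.03 (0.953 to 1.10), and their levels were 1.93-fold and 1.88-fold that of NIH/3T3. Fgfr1 and Igf1r were the receptors with the smallest gap between the highest and the next line.

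**Figure D2:**
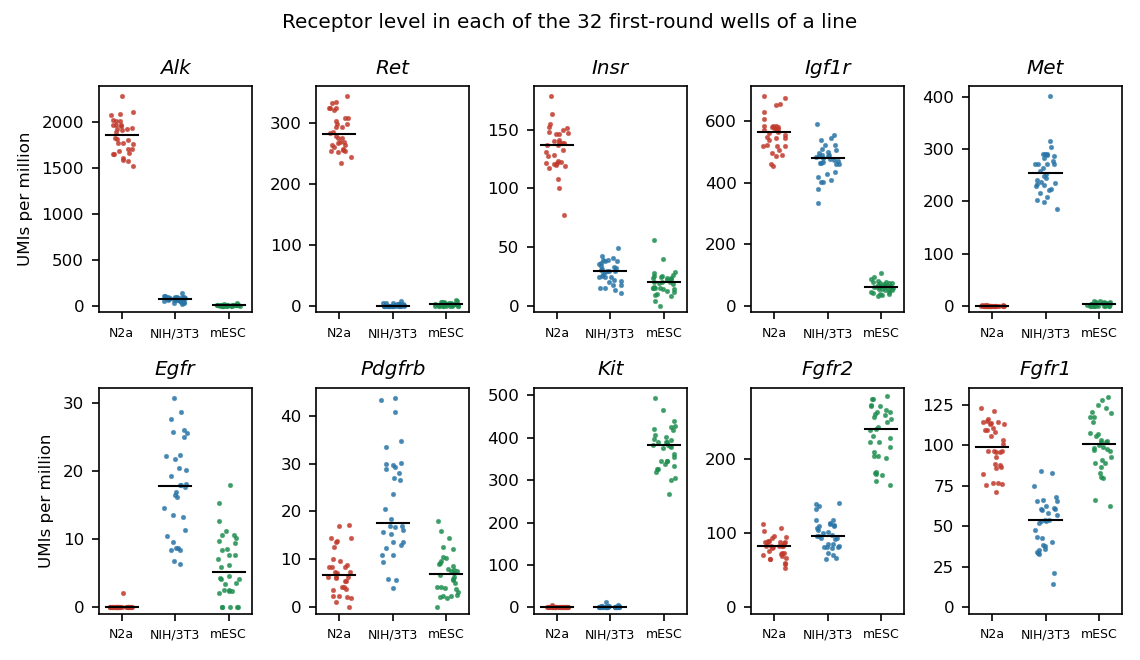
Level of the 10 receptors in CPM in each BC1 well; points are the 32 wells of a line and black lines their median. Wells of the highest line stood apart from all others for Alk, Ret, Insr, Met, Kit, and Fgfr2, and overlapped another line for Igf1r, Egfr, Pdgfrb, and Fgfr1. The share of all genes that stood apart in this way is not given here, so the number of such receptors is not read as a result.

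Low counts were compared with the marker lists and with barcodes of fewer than 100 UMIs, which hold free RNA or fragments of cells. Kit in N2a and NIH/3T3 was at 0.117% and 0.248% of its mESC level, Met in N2a at 0.107% of its NIH/3T3 level, and Egfr in N2a at 0.312% of its NIH/3T3 level. These lie below 0.359%, the highest share at which NIH/3T3 and mESC markers were found outside their line. Egfr in N2a, from 1 UMI, lay above 0.149%, the share of NIH/3T3 markers in N2a. As the markers may themselves be expressed at a low level, these shares do not tell background from low expression. Pdgfrb in N2a and mESCs was at 34.4% and 33.4% of its NIH/3T3 level, and Egfr in mESCs at 34.1%. These lay above the shares of NIH/3T3 markers in N2a and mESCs, 0.149% and 0.284%. Whether they held background of another source was not tested. In mESCs, Alk was at 6.49 CPM in cells and at 23.0 CPM in low barcodes (24 UMIs), Ret at 2.76 and 10.5 CPM (11 UMIs), and Met at 3.17 and 7.66 CPM (8 UMIs). Egfr in mESCs was at 6.09 and 6.71 CPM (7 UMIs). Pdgfrb was at 7.30 and 13.4 CPM (14 UMIs) in mESCs and at 7.52 and 8.12 CPM (15 UMIs) in N2a, and Ret in NIH/3T3 at 1.28 and 3.68 CPM (5 UMIs). Levels of the receptors under 10 CPM were thus lower in cells than in low barcodes throughout. Higher levels went either way: Ret in N2a was at 286 CPM in cells and 346 in low barcodes, and Alk in N2a at 1866 and 1415. The comparison with low barcodes therefore cannot tell low levels from background. Alk in NIH/3T3 was at 75.2 CPM in cells and 80.9 in low barcodes (110 UMIs), and most of its UMIs in cells came from 1 of 3 groups of cells, which are described after the gene lists.

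The number of receptors detected per cell depends on depth, and N2a cells were the deepest. As counted, N2a cells had UMIs of 3.94 of the 10 receptors on average (3.85 to 4.02), NIH/3T3 cells of 2.56 (2.49 to 2.63), and mESCs of 2.17 (2.11 to 2.23). With every cell reduced by random draw to 1000 UMIs, the means were 1.67, 0.849, and 0.688. The order of the lines was the same in both. At this depth, 10.4% of N2a cells, 37.8% of NIH/3T3 cells, and 46.3% of mESCs had no UMI of any of the 10. Thinning lowered the share of Alk-positive N2a cells from 95.5% to 75.1% and that of Kit-positive mESCs from 73.8% to 29.6%, while Igf1r was found in 38.7% of thinned N2a cells and 36.8% of thinned NIH/3T3 cells.

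Pairs of receptors were seen in the same cell, at shares that depend on the share of each. Of N2a cells, 72.2% had both Alk and Ret, 82.3% both Alk and Igf1r, and 48.5% both Igf1r and Insr. Of NIH/3T3 cells, 55.5% had both Igf1r and Met. Of mESCs, 46.1% had both Kit and Fgfr2, and 24.8% both Fgfr1 and Fgfr2. These shares rise with the depth of a cell, and after thinning Alk and Ret were both seen in 17.9% of N2a cells, Igf1r and Met in 7.46% of NIH/3T3 cells, and Kit and Fgfr2 in 5.57% of mESCs. Alone, Alk was seen in 75.1% and Ret in 23.8% of thinned N2a cells. Whether any pair was seen together more often than its single shares give was not tested.

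**Figure D3:**
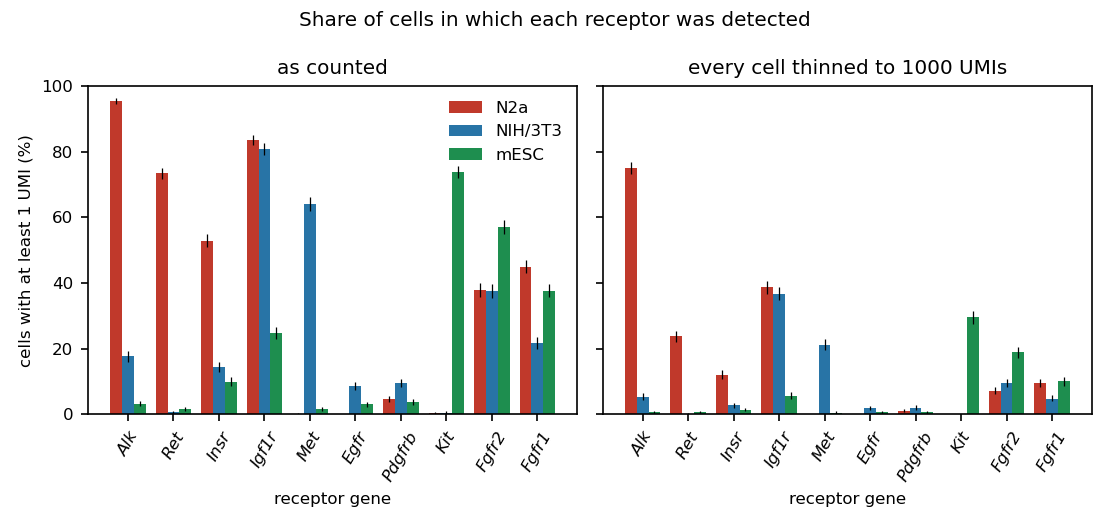
Share of cells with at least 1 UMI of each receptor, as counted and after thinning every cell to 1000 UMIs; bars are 1 sample per line with 95% Clopper-Pearson intervals. The lines kept their order for Alk, Met, and Kit, and the share of Alk-positive N2a cells fell from 95.5% to 75.1%. For Fgfr1, N2a was above mESCs as counted (45.0% and 37.7%) and below them after thinning (9.47% and 10.1%). For Fgfr2, N2a and NIH/3T3 were at 37.9% and 37.5% as counted, and at 7.15% and 9.52% after thinning.

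The genes with the line profile nearest to each receptor were found over all genes as the smallest Euclidean distance of log2(CPM + 1) over the 3 lines, a likeness over 3 points that says nothing of shared control. The nearest to Kit were Calcoco2, Fbxo15, and Prex2, which were at 425, 416, and 346 CPM in mESCs. Met was nearest to Dab2, Anxa3, and Ccnd2, at 239, 222, and 318 CPM in NIH/3T3. Ret was nearest to Dkk3, Marchf11, and Col6a5, at distances of 0.20, 0.24, and 0.42. Insr was nearest to Fzd3, Cyth1, and Anxa6, with Fzd3 at a distance of 0.15. For Alk, no gene came close: Baiap2l1, Igfbp4, and Slco3a1 were nearest, at distances of 1.68, 2.13, and 2.14, and the first was at 656 CPM in N2a. Igf1r was nearest to Oxct1, Frmd4a, and Foxp1 (0.52 to 0.86), Fgfr1 to Swt1, Mphosph6, and Atp6v1f (0.12 to 0.16), Fgfr2 to Sugt1, Sgo2a, and Mcm5 (0.11 to 0.24), Egfr to Tnfrsf1b, Tbc1d2, and Zbed3 (0.09 to 0.36), and Pdgfrb to Vps51, Nudt13, and Iffo2 (0.23 to 0.27).

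The rest of the receptor family was read from a list of 48 other receptor tyrosine kinases. Of these, 29 had at least 5 CPM in a line, and 12 were called, which is 41.4% of those tested, where 21.6% of all genes tested were called for any line. N2a had 3, led by Ntrk3, the receptor for neurotrophin-3, at 215 CPM in N2a, 10.5 in mESCs, and 1.28 in NIH/3T3, followed by Epha10 at 7.07 CPM and Aatk at 6.79 CPM. NIH/3T3 had 3, Axl at 272 CPM, Ror1 at 87.5, and Pdgfra at 48.1. The 6 in mESCs included the ephrin receptors Epha4 at 346 CPM, Epha7 at 23.5, and Ephb1 at 10.6, the pseudokinase Ptk7 at 54.0, and Erbb3 at 25.8. Ddr2, a collagen receptor, was at 316 CPM in NIH/3T3, 222 in N2a, and 61.0 in mESCs and was not called. Together with the 10 receptors, 58 were listed, 39 tested, and 17 called, and 10 had at least 5 CPM in all 3 lines.

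Ligands and receptors were not always highest in the same line. Of 35 ligand genes, 17 were tested and 10 called, which is 58.8%, against 21.6% of all genes tested. Of the called ligands, N2a had 1 (all genes 6.79%), mESCs had 3 (8.88%), and NIH/3T3 had 6 (5.95%). Kitl, the ligand of Kit, was at 452 CPM in NIH/3T3 (440 to 465), 4.22 in mESCs, and 0.446 in N2a, so the line with Kit was not the line with its ligand. Gdnf, a ligand of Ret, was at 36.7 CPM in NIH/3T3 and 0.111 in N2a, and was at 0 in mESCs, which allows up to 0.243 CPM. By contrast, Hgf was at 15.9 CPM in NIH/3T3, the line with Met, with 0 UMIs in N2a, which allows 0.167 CPM, and 0.162 CPM in mESCs. Ptn, or pleiotrophin, for which binding to Alk has been described, was at 181 CPM in N2a and below 1 CPM in the other lines, and the related Mdk was at 273 CPM in mESCs. Alkal1 and Alkal2, also on the ligand list, had 3 UMIs each in N2a, or 0.167 CPM. Neither was above 0.406 CPM in any line. Fgf4 was at 160 CPM in mESCs, Fgf7, a ligand of an Fgfr2 splice form, at 119 CPM in NIH/3T3, and Ereg, a ligand of Egfr, at 20.7 CPM in NIH/3T3. The last of the ligands named by the rule, Nrtn of the GDNF family, was at 5.19 CPM in mESCs.

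Co-receptors and binding proteins also differed between the lines. Of 14 genes, 9 were tested and 6 called, which is 66.7%, against 21.6% of all genes tested. Gfra1, which presents GDNF to Ret, was at 327 CPM in N2a (318 to 335), 33.7 in mESCs, and 0.598 in NIH/3T3, and was thus highest in the line with Ret. Of the binding proteins for insulin-like growth factors, Igfbp4 was at 474 CPM and Igfbp5 at 86.3 CPM in N2a, Igfbp6 at 233 CPM in NIH/3T3, and Igfbp2 at 237 CPM and Igfbp3 at 8.03 CPM in mESCs. Each of the 3 lines therefore had a binding protein that was called for it.

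**Figure D4:**
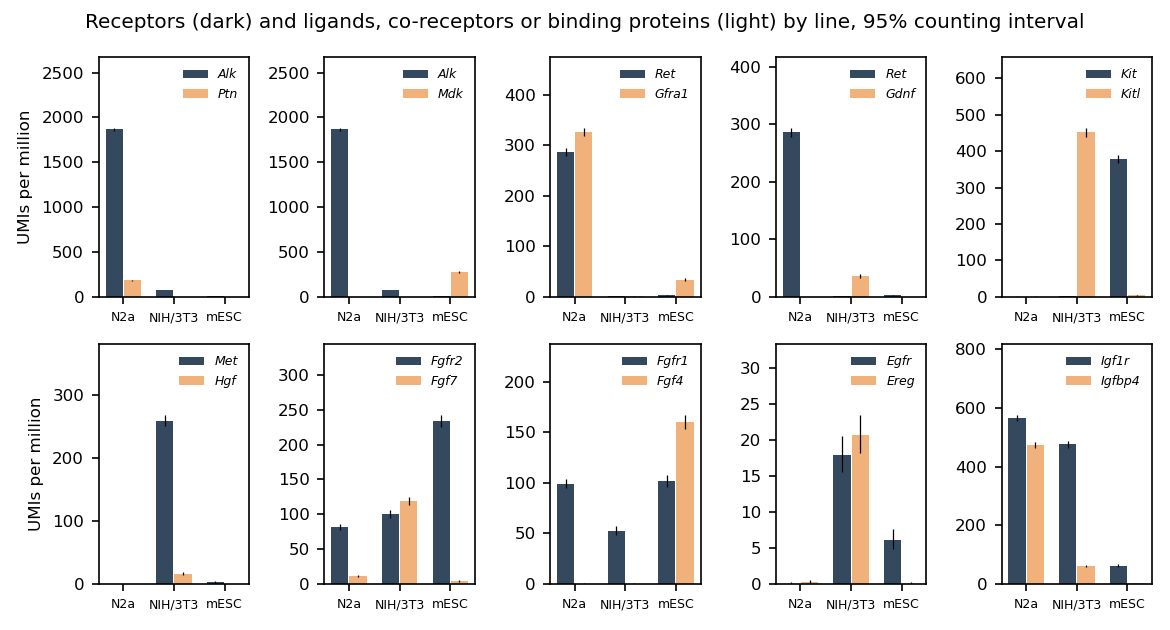
Receptors and a ligand, co-receptor, or binding protein of each, in CPM per line with 95% Poisson intervals; each panel has its own axis, and heights are to be compared for a gene between lines, not between genes. Kitl was highest in NIH/3T3 and Kit in mESCs, whereas Gfra1 and Ret were both highest in N2a and Hgf and Met in NIH/3T3.

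Inside the cell, adaptors pass the signal on and inhibitors restrain it. Of 18 adaptor genes, 16 were tested and 2 called (12.5%, against 21.6% of all genes). The called adaptors were Irs2, a docking protein of Insr and Igf1r, at 144 CPM in N2a, against 18.6 in mESCs and 20.5 in NIH/3T3, and Grb10, which binds and restrains these receptors, at 248 CPM in NIH/3T3, 44.6 in mESCs, and 0.334 in N2a. Gab1, a docking protein of Met and Egfr, was at 301 CPM in mESCs, 81.2 in NIH/3T3, and 0.613 in N2a and fell short of the 4-fold limit. Frs2, the docking protein of the FGF receptors, was at 186 CPM in NIH/3T3, 122 in N2a, and 71.0 in mESCs. Of 15 inhibitors, 14 were tested and 1 called (7.14%, against the same 21.6%), Dusp4, a phosphatase of ERK, at 97.2 CPM in N2a, against 2.68 in mESCs and 22.3 in NIH/3T3. Spred2, Spred1, and Cbl, the most abundant of this list, reached 212 CPM in mESCs, 198 in N2a, and 140 in mESCs.

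Genes that respond to ERK activity were called in 4 of 10 cases (40.0%, against 21.6% of all genes). Of these, 0 were called for mESCs, which were grown with the MEK inhibitor, where 8.88% of all genes were called for mESCs, so that a count of 0 among 10 is not read as a result. Egr1 was at 202 CPM in N2a, against 6.09 in mESCs and 30.9 in NIH/3T3. Ccnd1, or cyclin D1, was at 601 CPM in NIH/3T3, 74.9 in N2a, and 58.4 in mESCs, and Fosl1 and Phlda1 were at 188 and 108 CPM in NIH/3T3. Of the 10 genes, 1 was highest in mESCs, and 7 reached 5 CPM there, against 9 in N2a and 10 in NIH/3T3. The list summed to 598 CPM in mESCs, 746 in N2a, and 1159 in NIH/3T3. The share of all genes for these counts is not given here, so they are descriptions. Levels in mESCs were not low throughout the list, and the genes named next were near or above another line there. Etv5 was at 321 CPM in mESCs, 92.3 in N2a, and 53.2 in NIH/3T3, and Ier2 at 98.9 CPM in mESCs, 102 in N2a, and 28.8 in NIH/3T3. Etv1 was at 64.3 CPM in mESCs and 69.5 in NIH/3T3, and Etv4 at 29.5 and 30.3 CPM. The part of the inhibitor in these values was not tested, since line and medium cannot be told apart.

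Within a line, cells were grouped by Leiden clustering on 150 variable genes, from which the receptors and all listed genes were left out. Values between such groups are descriptions, as all genes of the same cells can share what formed the groups. NIH/3T3 cells fell into 3 groups of 729, 698, and 610 cells, each with cells from all 32 BC1 wells. The third group, 29.9% of the cells, had a median of 5558 UMIs per cell, against 3891 and 5210 in the others, and 3.32% mitochondrial UMIs, against 2.49% and 2.24%. The genes that set it apart most were Pla2g7, A330076H08Rik, and Pcdh7, which were higher, and Uggt2, Ncam1, and Dnajc3, which were lower. A block of 7 chromosome 14 genes (Abcc4, Dnajc3, Dzip1, Gpc6, Gpr180, Tgds, and Uggt2) summed to 13.9 CPM in this group, against 239 and 260 CPM in the others.

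The third group held nearly all Alk UMIs of NIH/3T3. Alk was at 208 CPM in its cells (194 to 223) and at 5.09 CPM in the other NIH/3T3 cells (3.62 to 6.96), a ratio of 40.9 (29.7 to 57.9), and 95.6% of the NIH/3T3 Alk UMIs came from the group. It was higher in the group in 32 of 32 wells. At least 1 Alk UMI was found in 53.8% of the group and 2.24% of the other cells, where the level was near the 6.49 CPM of mESCs. Of the 10629 genes tested there, 3.88% were at least 4-fold higher in the group and 1.62% at least 4-fold lower, and Alk and Pdgfrb were the receptors of the 10 past these limits.

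Pdgfrb went the other way. It was at 1.49 CPM in the third group (0.545 to 3.23), from 6 UMIs, and at 32.6 CPM in the other NIH/3T3 cells (28.7 to 36.9), so that it was lower in the group by a factor with an interval from 9.95 to 60.4. It was lower in the group in 31 of 32 wells. Its relative Pdgfra, the receptor for PDGF-AA, was at 110 CPM in the group and 15.4 CPM in the other cells, a ratio of 7.15 (5.83 to 8.84), and higher in 32 of 32 wells. The 2 PDGF receptors thus stood in opposite directions in the same cells. The Wnt receptors Ror1 and Ror2 were lower in the group, at 6.44 against 130 CPM and at 3.71 against 76.0 CPM.

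The other receptors with a tested level differed less between these cells. Fgfr1 was at 81.7 CPM in the third group and 37.2 in the others, a ratio of 2.20 (1.87 to 2.58), Egfr at 24.5 and 14.4 CPM (1.71, 1.29 to 2.26), and Met at 322 and 227 CPM (1.42, 1.32 to 1.53). For Fgfr2, at 101 and 99.2 CPM, the ratio of 1.02 had an interval from 0.903 to 1.15. Igf1r was at 430 CPM in the group and 501 in the others, and Insr at 26.0 and 30.4 CPM. N2a markers summed to 10.6 CPM in the third group and to 15.1 and 19.6 CPM in the others, against 980 CPM in N2a, and NIH/3T3 markers summed to 1519 CPM in the third group. Among the N2a markers, Gata2 was higher in the group, at 8.42 CPM against 1.96 in the others (4.30-fold, 2.28 to 8.50), whereas Tubb3 was lower, at 0.991 against 13.4 CPM, and Isl1 had 0 UMIs in NIH/3T3. The mESC markers summed to 23.3 CPM in the third group and to 12.1 and 13.5 CPM in the others. Doublets were not called, and their part in these values was not tested. Without the third group, NIH/3T3 had Pdgfrb at 32.6 CPM and past the 4-fold limit, so that 2 receptors were called. Alk was then at 5.09 CPM, with an interval that overlaps that of mESCs. The share of all genes called without this group is not given here. As Pdgfrb was low in the cells left out, its rise follows from leaving them out, and the count is not read as a result.

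**Figure D5:**
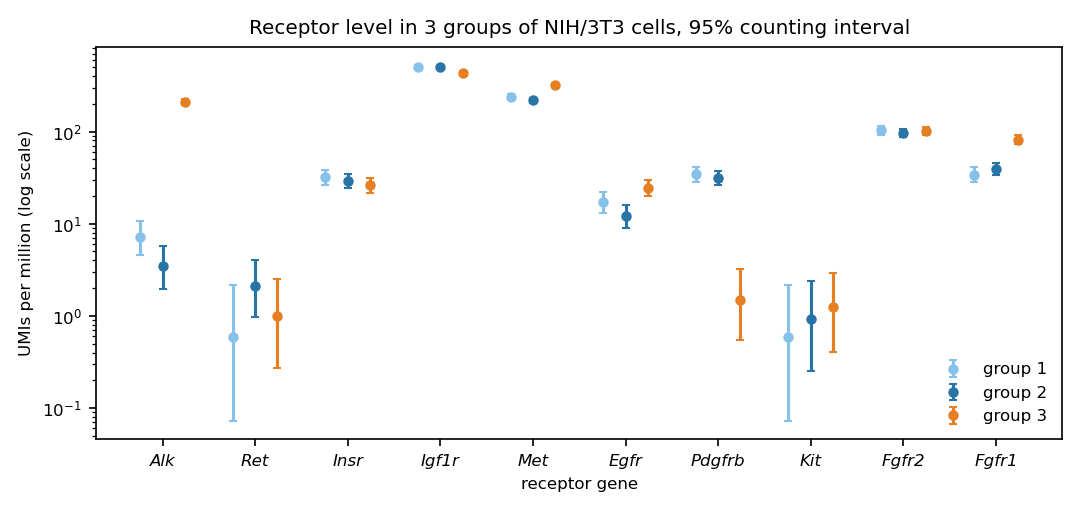
Level of the 10 receptors in CPM on a log axis in the 3 groups of NIH/3T3 cells, with 729, 698, and 610 cells; points are sums over the cells of a group and bars 95% Poisson intervals. Alk was at 208 CPM in group 3 and below 8 CPM in the others, and Pdgfrb was at 1.49 CPM in group 3.

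In N2a cells and mESCs, 0 of the 7 to 10 receptors tested in a group passed the 4-fold limit at the clustering resolution of 0.5. The share of all genes past this limit was not computed for these groups, so the count of 0 is not read as a result. N2a groups of 955, 785, and 583 cells had Alk at 1823, 1853, and 1958 CPM and Ret at 315, 257, and 291 CPM. Igf1r was at 676, 460, and 570 CPM and was highest in the first group, whereas Fgfr2 was at 64.6, 107, and 64.1 CPM and was highest in the second. At a resolution of 0.8, a further N2a group of 107 cells, 4.61% of the line, stood apart, with a median of 1789 UMIs per cell, against 5549 or more in the other N2a groups. Alk was at 304 CPM in it (241 to 377), from 81 UMIs, and at 1865 to 1927 CPM in the other groups, and 29.9% of its cells had an Alk UMI. Igf1r was at 165 CPM there (120 to 221), against 462 to 700 CPM, and Ret at 225 CPM (172 to 290), against 257 to 319 CPM. The low depth of these cells moved with these levels, and its part in them was not tested. In mESC groups of 1213, 787, and 137 cells, Kit was at 391, 346, and 383 CPM and Fgfr2 at 243, 193, and 294 CPM. Fgfr1 was at 59.4 CPM in the third mESC group (42.8 to 80.2) and 104 CPM in the other mESCs, a ratio of 1.75 (1.29 to 2.45).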

How the data were processed

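RNA of N2a, NIH/3T3, and mESC cells was measured in 1 CapSeq library. The authors split reads by BC1, trimmed them, and used STARsolo for alignment to GRCm39 and counting over GENCODE M30 genes. The feature mode is not given in the sources used here. The deposited values are UMI counts of each gene in each barcode, with no filter or normalization, in a matrix per line and a pooled matrix of the same reads, which was used only to recount the same barcodes. Matrix totals were 20662884, 13505027, and 13875356 UMIs.

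From these, CPM, shares, ratios, and thinned counts (1 draw, seed 1) were computed per line. Doublets were not called. Groups used 150 variable genes, 20 principal components, 100 neighbors, and a Leiden resolution of 0.5. The receptors and lists were chosen with earlier results of these data known. Genes named by rule are the 10 receptors, the called genes (at most 5 per list and line) and the 3 most abundant of each list, the 3 nearest profiles of each receptor, and all markers. Outside this rule, Ier2, Etv1, Etv4, Alkal1, and Alkal2 were named with their values known. Names from groups within a line, including those of a chromosome 14 block, were also chosen after their values were seen. Of 33565 gene identifiers, 32953 were found in GENCODE M39, used for positions and sequences. The sequences of 2 receptors are not reported here. The call rule and intervals were tested on simulated data. Alternatives changed the cell filter, cell calling, thinning depth, scaling, matrix, and call limits. Clustering ran in leidenalg 0.10.2, igraph 0.11.9, and scikit-learn 1.9.0, intervals in SciPy 1.17.1, tables in pandas 2.3.3 and NumPy 2.4.6, sequences in Biopython 1.88, and figures in matplotlib 3.10.9, all under Python 3.11.15.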

Additional observations from a re-analysis of the deposited data

Results flagged for a closer look

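The pooled matrix, which the comparisons do not use, held UMIs of the 10 receptors that were absent from the matrix of the line at the same barcodes. There were 887 such UMIs at N2a cells, 169 at NIH/3T3 cells, and 184 at mESCs. They equal 1.60%, 1.38%, and 1.78% of the pooled receptor UMIs of these cells, and over all genes the shares were 1.61%, 1.60%, and 1.67%. Of the N2a UMIs, 537 were of Alk, and of the mESC UMIs, 84 were of Kit. Met in N2a had 5 UMIs in both matrices, and Egfr in N2a had 1 in both.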

How the results depend on the processing

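No paired analysis was possible because each line had 1 sample. Between the lines, only counting error is known, and differences between cultures of a line were not measured. Under the alternatives, 248 recomputed levels stayed within their interval and 32 moved beyond it, as did 85 and 5 log2 ratios, 164 and 76 thinned shares, and 0 values reversed. The number of receptors highest in each line (N2a 4, NIH/3T3 3, mESCs 3) did not change in any alternative run. With a 2-fold limit, 3 receptors were called in NIH/3T3 and 2 in mESCs, and the called genes rose to 5 adaptors, 3 inhibitors, and 7 ERK-responsive genes, while the share of all genes called rose to 11.9% (N2a), 13.4% (mESCs), and 11.1% (NIH/3T3). With a minimum of 1 CPM, 19 of the other receptor tyrosine kinases were called, where the share of all 17110 genes was 7.87% (N2a), 11.6% (mESCs), and 6.69% (NIH/3T3). Receptors detected per cell after thinning to 500 UMIs were 1.05, 0.484, and 0.376 in N2a, NIH/3T3, and mESCs, and 1.02, 0.465, and 0.375 when cells with at least 500 UMIs were added, since fewer UMIs were drawn. Leaving out the third NIH/3T3 group, an alternative chosen after seeing the data, gave 2 called receptors and 0.769 receptors per cell in NIH/3T3. The share of all genes called is not given for it. It raised the log2 ratio of Alk between N2a and NIH/3T3 from 4.63 to 8.52, as Alk was high in the cells left out. At a clustering resolution of 0.8, also chosen after seeing the data, 609 of the 610 cells of that group stayed together, with Alk at 208.2 and Pdgfrb at 1.49 CPM, whereas N2a gained a group of 107 cells with Alk at 304 CPM.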

Other observations

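Other genes of receptor signaling also differed between the third group of NIH/3T3 cells and the other NIH/3T3 cells, and were named because they passed the 4-fold limit there. Grb14, an adaptor that binds the insulin receptor, was at 144 CPM in the group and 1.70 CPM in the other cells, a ratio of 84.6 (49.1 to 160), and held 97.8% of its NIH/3T3 UMIs there. Irs1, a docking protein of Insr and Igf1r, was at 88.4 and 15.1 CPM, whereas Gab2 was at 31.4 and 144 CPM. Hgf, the ligand of Met, was at 43.6 CPM in the group and 1.31 CPM in the other cells, so 94.6% of its UMIs came from the group, and it was higher there in 31 of 32 wells. Btc, a ligand of Egfr, was at 22.8 and 2.74 CPM, and Igfbp4 at 166 and 4.96 CPM. Dusp4 was at 52.7 and 6.27 CPM, Fos at 3.71 and 16.6 CPM, and Fgfr4 at 1.73 and 8.23 CPM. The NIH/3T3 markers Col1a1, at 57.4 and 13.3 CPM, and Thy1, at 16.8 and 0.261 CPM, were also higher in the group.

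Gdnf was at 13.1 CPM in the group and 49.1 CPM in the other cells, and Kitl at 561 and 395 CPM. Axl was at 208 and 306 CPM, and Ddr2 at 440 and 250.4 CPM.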
